A study of Homo sapiens with 12 samples.

Results

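The 10 genes described here, used as surface and lineage markers of ovarian carcinoma, were followed by name in the established human cell line HEYA8, which derives from an ovarian cancer. They were PODXL, MUC1, MUC16, MSLN, WFDC2, FOLR1, PAX8, EPCAM, L1CAM and PAEP. Of these 10 genes, 6 had values among the 21207 genes used here, and 5 were among the 17767 genes tested. MUC1, MUC16, WFDC2 and FOLR1 were not analysed here.

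The study asked what colforsin daropate does to gene expression in these cells. This compound is a form of forskolin that dissolves in water, and forskolin raises cyclic AMP by activating adenylyl cyclase. Cells in DMEM received the vehicle, listed as 0 µM, or 1, 5 or 10 µM colforsin daropate for 48 h, with 3 libraries of total RNA per group. All groups are the same cell line, so they model 1 tumour line and no other cells of a tumour. The design text calls the libraries biological replicates, and their titles share a number across groups, 6, 8 or 11, whose meaning is not given. Values below run in that order, 6, 8 and 11, within a group.

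The markers are of several kinds. PODXL is podocalyxin, a heavily sialylated sialomucin of podocytes, endothelium and many carcinomas, where its negative charge keeps membranes apart. MUC1 and MUC16 are membrane mucins (MUC16 carries the CA125 epitope), MSLN is mesothelin, a partner of MUC16, FOLR1 is folate receptor alpha, EPCAM is an epithelial adhesion molecule, and L1CAM is an adhesion molecule of neurons that invasive carcinomas also carry. PAX8 is the transcription factor of the Müllerian, thyroid and kidney lineages by which pathologists assign a tumour to the ovary or tube. WFDC2 (HE4) and PAEP (glycodelin, a lipocalin of the secretory endometrium) are secreted.

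The 250 bases before the start of PAEP and PAX8 are shown because these genes passed the test at 10 µM in opposite directions and colforsin acts through cyclic AMP. The sequences are from RefSeq on GRCh38.p14, written 5′ to 3′ on the strand of the gene, and 3 of the 6 genes with values (PAEP, PAX8 and L1CAM) had an entry. The PAEP window lies at chr9:135561506-135561755 on the plus strand and the PAX8 window at chr2:113278922-113279171 on the minus strand.
PAEP: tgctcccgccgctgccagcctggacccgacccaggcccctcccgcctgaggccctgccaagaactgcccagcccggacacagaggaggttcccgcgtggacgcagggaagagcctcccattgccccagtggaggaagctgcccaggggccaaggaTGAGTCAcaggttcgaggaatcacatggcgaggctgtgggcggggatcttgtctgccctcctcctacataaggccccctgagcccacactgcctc
PAX8: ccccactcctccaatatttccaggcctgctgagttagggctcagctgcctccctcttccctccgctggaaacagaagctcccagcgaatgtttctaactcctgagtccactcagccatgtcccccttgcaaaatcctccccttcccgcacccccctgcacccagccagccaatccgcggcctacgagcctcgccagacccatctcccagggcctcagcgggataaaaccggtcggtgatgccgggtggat
Capitals mark the match to an AP-1 element, searched as TGANTCA on both strands. Its first base in PAEP stood 95 bases before the start (position -95), and 6.57% of 35116 such windows held this motif. The cyclic AMP response element TGACGTCA, held by 1.65% of windows, and its half-site TGACG, which lies within it and was held by 21.2%, had no match in either window. A match is a stretch of letters and was not tested as a binding site.

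The libraries held about 24000000 to 48700000 reads on genes, as recovered from the deposited values. The lowest was the vehicle library of number 6, and the others held at least 31200000. Values are the authors' variance-stabilised values, close to log2 of the normalised count for abundant genes and flattening towards a floor of 4.86. Normalised counts given below were recovered from them. Epithelial markers were present only in part. EPCAM (5.45 to 5.72) and KRT19 (4.86 to 5.94) lay near the floor, while KRT8 (13.1 to 14.5) and KRT18 (13.6 to 14.9) were abundant. Mesenchymal genes were abundant too, with ZEB1 at 12.4 to 12.7 and SNAI2 at 12.2 to 13.1. The leukocyte genes PTPRC (4.86 to 5.91) and CD14 (4.86 to 5.37) were at or near the floor. The 7 mesenchymal markers summed to 1544727 to 2302829 normalised counts at 10 µM, against 608575 to 1133224 in vehicle, mostly from FN1 and VIM, and the 6 epithelial markers with values to 29509 to 32079 at 10 µM, against 34452 to 59437 in vehicle, although KRT7 within them rose. The 3 fibroblast markers with values summed to 290 to 1347 counts at 10 µM, against 43.3 to 188 in vehicle. Over the 12 libraries COL1A1 held 13.5 to 1294 counts, while PDGFRA held 8.62 to 31.3 and PDGFRB 4.86 to 51.3. The 5 endothelial markers summed to 3950 to 4491 counts at 10 µM, against 1958 to 8052 in vehicle, mostly from CDH5. CDH5 was measured at 10.8 to 13.1 (1725 to 8722 counts). The others, PECAM1, VWF, KDR and TEK, were low, and none exceeded 210 counts in any library. The part of these sums in the results below was not tested. In bulk RNA, fewer cells of a kind and less RNA per cell cannot be told apart.

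Of the markers, 4 were well expressed and 2 were low. Per kilobase of exon in GENCODE 29, the normalised count in vehicle averaged 2116 ± 2380 for PAEP, 1763 ± 184 for PODXL, 909 ± 233 for PAX8, 105 ± 33.3 for L1CAM, 56.1 ± 10.4 for MSLN and 3.17 ± 0.562 for EPCAM (SD, n = 3 each). In this order only PAEP and PODXL overlapped as neighbours, since PAEP in the vehicle libraries spanned 715 to 4865 per kilobase and PODXL 1564 to 1928. At 10 µM the order was PAX8 at 1455 ± 101, PAEP at 355 ± 37.4, PODXL at 312 ± 37.1, L1CAM at 204 ± 77.7, MSLN at 58.0 ± 7.75 and EPCAM at 2.99 ± 0.786 per kilobase (SD, n = 3 each). There PAX8 stood clear of all others, PAEP overlapped PODXL, and L1CAM overlapped PODXL.

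**Figure D1:**
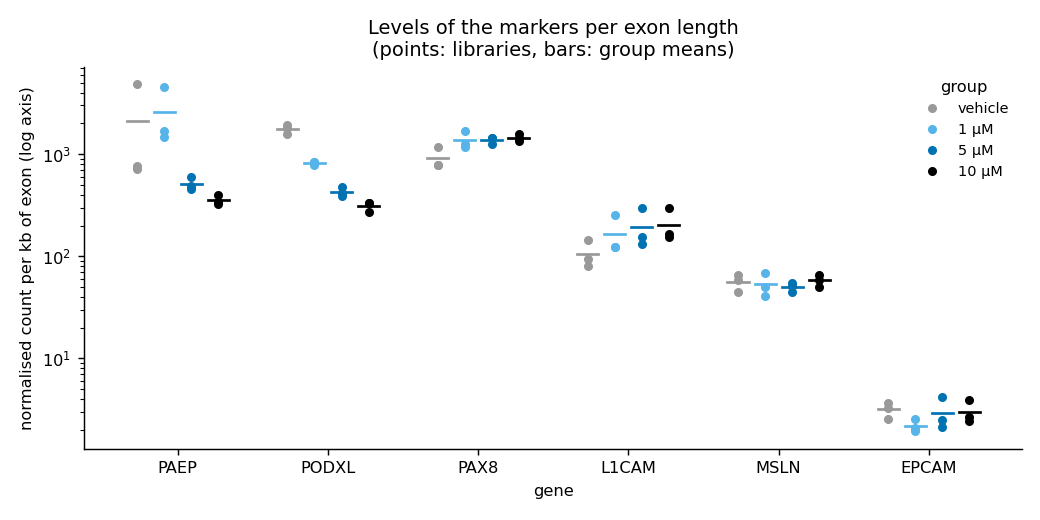
Normalised count per kilobase of exon (log axis) of the 6 markers with values, with groups in dose order from left to right, points for libraries and bars for group means. PAX8 led at 10 µM at 1355 to 1558, while EPCAM stayed at 1.93 to 4.19 in all 12 libraries.

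EPCAM was the marker nearest the minimum of the table. Its stabilised values were 5.67, 5.62 and 5.54 in vehicle, 5.54, 5.45 and 5.47 with 1 µM, 5.48, 5.53 and 5.72 with 5 µM, and 5.52, 5.69 and 5.55 with 10 µM. These lay 0.59 to 0.86 above the floor and came from 5 to 11 reads per library. The groups overlapped, and no library exceeded the floor by 1, so EPCAM did not enter the test. The gene lies on chromosome 2 at 47345158 to 47387601 (plus strand, GRCh38). Whether EPCAM changed was not tested.

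MSLN was low but measurable, 2.43 to 3.00 above the floor in all 12 libraries, from 105 to 182 reads. Its stabilised values were 7.79, 7.39 and 7.67 in vehicle, 7.86, 7.29 and 7.50 with 1 µM, 7.52, 7.40 and 7.59 with 5 µM, and 7.68, 7.50 and 7.79 with 10 µM. All groups overlapped. The difference from vehicle was -0.07 with 1 µM (95% interval -0.41 to 0.27), -0.11 with 5 µM (-0.45 to 0.23) and 0.04 with 10 µM (-0.30 to 0.38). None passed limma's test (adjusted p = 0.891, 0.690 and 0.882 at 1, 5 and 10 µM), and the sign at 1 and 10 µM turned when single libraries were left out. MSLN lies on chromosome 16 at 760762 to 768865 (plus strand).

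PODXL fell at every dose. Its stabilised values were 13.7, 13.6 and 13.4 in vehicle, 12.5, 12.5 and 12.4 with 1 µM, 11.7, 11.5 and 11.4 with 5 µM, and 10.9, 11.2 and 11.2 with 10 µM. The groups did not overlap at any step, so all 12 libraries fell in the order of the doses. The gene lies on chromosome 7 at 131500262 to 131558217 (minus strand).

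In normalised counts PODXL averaged 12120 ± 1266 in vehicle, 5605 ± 224 with 1 µM, 2917 ± 320 with 5 µM and 2147 ± 255 with 10 µM (SD, n = 3 each). The 10 µM libraries held 1853, 2295 and 2295 counts, against 13250, 12359 and 10751 in their matched vehicle libraries, so vehicle was 7.15, 5.39 and 4.69 times higher. The mean difference from vehicle was -1.10 ± 0.11 with 1 µM, -2.03 ± 0.11 with 5 µM and -2.47 ± 0.11 with 10 µM (log2 scale, SE), with adjusted p from limma of 5.81e-04, 1.93e-06 and 2.26e-07 at 1, 5 and 10 µM. Of all genes tested, 0.613%, 7.44% and 11.4% were called lower at 1, 5 and 10 µM. By size, the fall of PODXL ranked number 15 with 1 µM, 10 with 5 µM and 7 with 10 µM of 17767 genes.

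Between doses, PODXL was lower at 5 µM than at 1 µM by -0.93 ± 0.11 (SE, limma adjusted p = 0.00555), a comparison in which 0.310% of genes were called in either direction. At 10 µM it was lower than at 1 µM by -1.37 ± 0.11 (adjusted p = 9.47e-05), where 4.71% of genes were called. The step between 10 and 5 µM, -0.43 ± 0.11, did not pass (limma adjusted p = 1.00). There limma called 0 of 17767 genes, with 601 at an unadjusted p under 0.05, while voom on the recovered counts called 0 and the fit with the label number as a block called 1. Leaving out any single library changed none of these PODXL calls. Without all 4 libraries of number 8 or of number 11, where 2 libraries a group remained, 3 of these calls were lost. The adjusted p was then 0.255 and 0.0863 for 1 µM against vehicle, 0.829 and 0.366 for 5 against 1 µM, and 0.0886 and 0.0586 for 10 against 1 µM, without numbers 8 and 11 in that order.

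**Figure D2:**
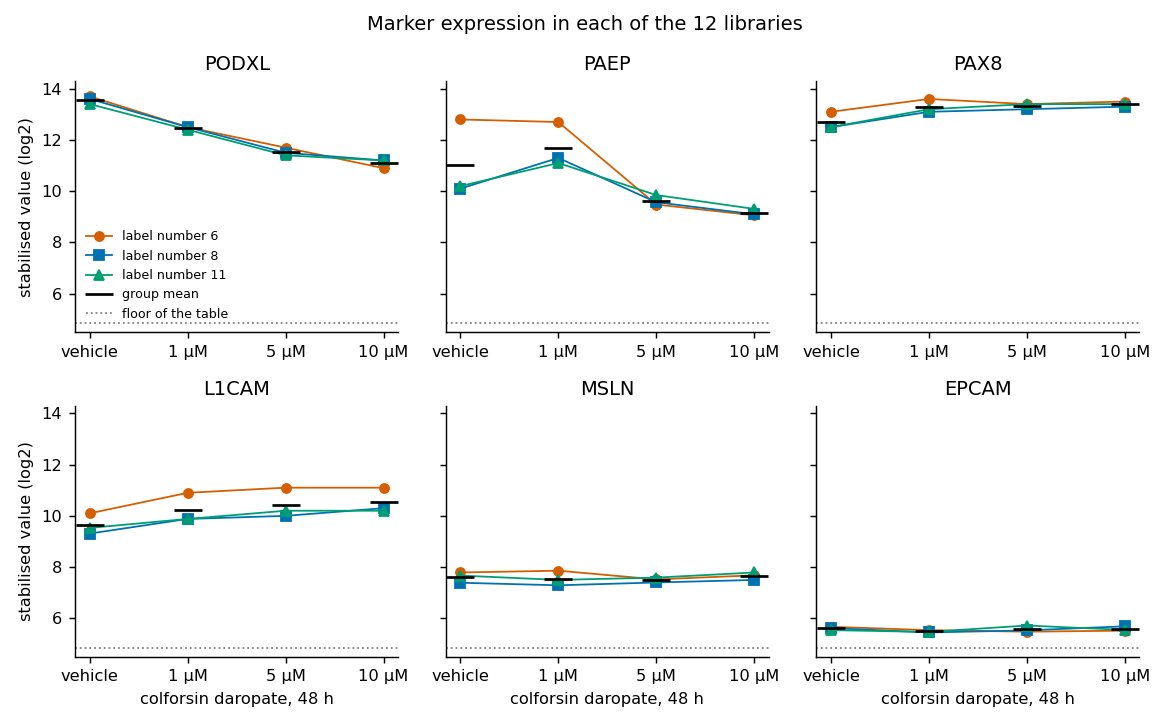
Stabilised values (log2) of the 6 markers in each of the 12 libraries, by dose, with lines joining the libraries of a label number, black bars for group means and a dotted line at the floor of 4.86. PODXL steps down without overlap, PAEP in number 6 starts at 12.8 and ends at 9.06, and EPCAM lies just above the floor.

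PAEP also fell at 10 µM, by amounts that differed between label numbers. Its stabilised values were 12.8, 10.1 and 10.2 in vehicle, 12.7, 11.3 and 11.1 with 1 µM, 9.48, 9.57 and 9.85 with 5 µM, and 9.06, 9.10 and 9.31 with 10 µM. All 5 and 10 µM libraries lay below all vehicle libraries, and the 1 µM libraries overlapped vehicle. Number 6 was far above the others in vehicle and at 1 µM, and just below them at 5 and 10 µM. PAEP lies on chromosome 9 at 135561756 to 135566955 (plus strand).

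The normalised count of PAEP averaged 3077 ± 3461 in vehicle, 3732 ± 2485 with 1 µM, 742 ± 110 with 5 µM and 516 ± 54.4 with 10 µM (SD, n = 3 each). In vehicle the count of number 6, 7073, was 6.55 times the mean of numbers 8 and 11. The vehicle SD therefore exceeds the vehicle mean, and the mean rests on that library. The difference from vehicle was 0.67 ± 0.61 with 1 µM, -1.40 ± 0.61 with 5 µM and -1.88 ± 0.61 with 10 µM (log2 scale, SE), and limma's adjusted p was 0.660, 0.150 and 0.0443 at 1, 5 and 10 µM. With the label number as a block the fall at 5 µM passed as well (adjusted p = 0.0399), in a fit that called 15.3% of genes lower. That block call was lost without number 8 (adjusted p = 0.155) or 11 (0.115). The fall at 10 µM against 1 µM was -2.54 ± 0.61 (limma adjusted p = 0.0373). At 5 µM against 1 µM the difference of -2.07 ± 0.61 passed with the block but not without it (adjusted p = 0.0263 and 0.234), where 2.68% of genes were called lower.

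Within label numbers, PAEP at 10 µM held 6.74% of the vehicle count in number 6, 47.3% in number 8 and 51.6% in number 11. At 5 µM it held 9.29%, 67.6% and 77.4%, and at 1 µM 93.2%, 237% and 191%, in the same order. The counts at 5 and 10 µM were below the matched vehicle in all 3 numbers, while those at 1 µM were above it in 2 of 3. Tested as an interaction, the difference from vehicle in number 6 minus that in 8 and 11 was -2.88 ± 0.21 at 5 µM (SE, limma adjusted p = 0.00887), and with 10 µM it was -2.80 ± 0.21 (adjusted p = 0.00612). This test was chosen after the gap in number 6 was seen, and its spread comes from numbers 8 and 11 alone, since number 6 has 1 library per group. By the same test 1.80% of genes were called at 5 µM and 4.92% at 10 µM.

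Without the 4 libraries of number 6, PAEP was 1.05 higher than vehicle at 1 µM, where 6.75% of genes were called higher (limma adjusted p = 0.00407). It was then lower by -0.44 at 5 µM and -0.94 at 10 µM (adjusted p = 0.0347 and 0.00147), where 13.8% and 17.2% of genes were called lower. The call at 10 µM is close to the threshold: it was lost in 9 of the 12 fits that left out 1 library, with adjusted p there of 0.0516 to 0.109. Those libraries were the 3 with 10 µM, the 3 with 5 µM, numbers 8 and 11 with 1 µM, and number 6 of vehicle, without which the difference was -0.99 (adjusted p = 0.0667). It was also lost in a fit of the 2 groups alone (adjusted p = 0.110), with voom on the recovered counts (0.0777), and without all libraries of number 8 (0.173) or number 11 (0.137). With the block it was lost without number 8, where the 3 markers called were PODXL, PAX8 and L1CAM. Without the vehicle library of number 6 the rise at 1 µM was 1.55 (adjusted p = 0.0393), and the fall at 5 µM against 1 µM passed (adjusted p = 0.0170). The call with 10 µM against 1 µM was lost in 8 of the 12 fits (the 3 libraries with 10 µM, the 3 with 1 µM, and numbers 8 and 11 with 5 µM), with adjusted p of 0.0534 to 0.123.

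**Figure D3:**
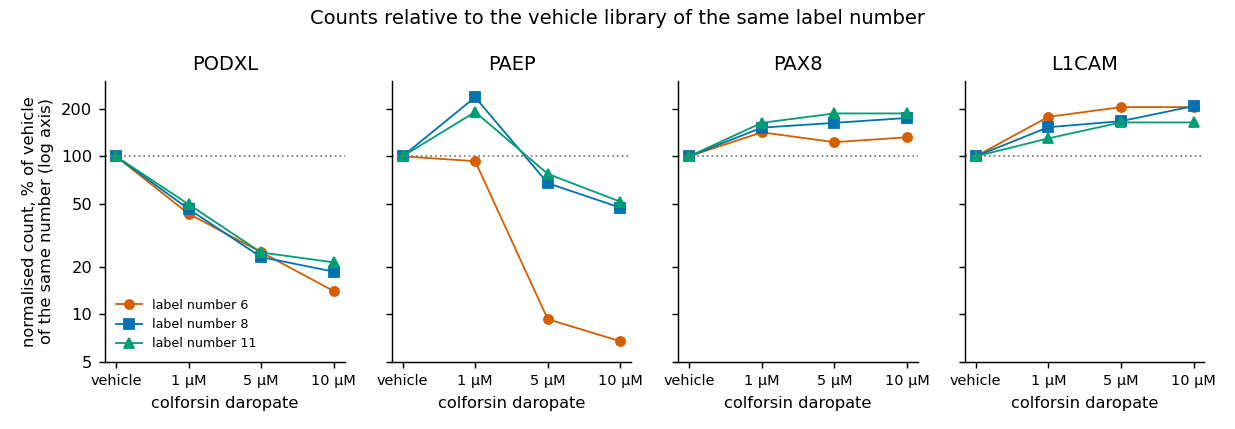
Normalised count as a percentage of the vehicle library of the same label number (log axis), by dose, for 4 markers, with a line per label number and a dotted line at 100%. PODXL ends at 18.6% and 21.3% in numbers 8 and 11 and lower in number 6, PAEP at 6.74% in number 6 and 47.3% and 51.6% in numbers 8 and 11, while PAX8 and L1CAM end above 100%.

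PAX8 rose at 5 and 10 µM. Its stabilised values were 13.1, 12.5 and 12.5 in vehicle, 13.6, 13.1 and 13.2 with 1 µM, 13.4, 13.2 and 13.4 with 5 µM, and 13.5, 13.3 and 13.4 with 10 µM. At 5 and 10 µM all libraries lay above all vehicle libraries. At 1 µM the lowest library equalled the highest of vehicle, number 6.

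The normalised count of PAX8 averaged 6730 ± 1725 in vehicle, 10144 ± 1943 with 1 µM, 10285 ± 808 with 5 µM and 10769 ± 750 with 10 µM (SD, n = 3 each). The rise over vehicle was 0.63 ± 0.17 at 5 µM and 0.70 ± 0.17 at 10 µM (log2 scale, SE; limma adjusted p = 0.0250 and 0.0108). Of all genes 7.67% were called higher at 5 µM and 11.2% at 10 µM. With 1 µM, PAX8 exceeded vehicle by 0.60 ± 0.17 (adjusted p = 0.0984) and passed with the label number as a block (adjusted p = 0.00215), in a fit that called 6.76% of genes higher, against 1.18% without the block.

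Relative to the matched vehicle, PAX8 at 10 µM held 132%, 175% and 187% in numbers 6, 8 and 11, higher in 3 of 3. The difference between 10 and 1 µM was 0.10 (95% interval -0.26 to 0.46; limma adjusted p = 0.768), so no further rise past 1 µM was detected. The call at 5 µM was lost without number 6 or 11 at 5 µM, or without number 8 or 11 of vehicle (adjusted p = 0.0767 to 0.101), and in a fit of those 2 groups alone (adjusted p = 0.0713). Without all libraries of number 8 or of number 11, the calls at 5 µM (adjusted p = 0.241 and 0.353) and 10 µM (0.148 and 0.184) were both lost, and with the block the call at 5 µM was lost without number 8 (0.0527). The block call at 1 µM was also lost without number 8 (0.164) or 11 (0.107). Without the vehicle library of number 6, the rise at 1 µM was 0.80 and passed (adjusted p = 0.00903).

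PAX8 lies on chromosome 2 at 113215997 to 113278950 (minus strand), and PAX8-AS1 overlaps it on the opposite strand. Whether counting used the strand is not given in the sources used here, so reads of the pair may not be separated. PAX8-AS1 averaged 11.87 ± 0.40 at 10 µM, against 11.03 ± 0.49 in vehicle (stabilised value, SD, n = 3 each), a difference of 0.83 ± 0.31 (SE) that did not pass (limma adjusted p = 0.0780).

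L1CAM was higher than the matched vehicle library in every treated library, and its call depended on how the label number entered the fit. Its stabilised values were 10.1, 9.31 and 9.53 in vehicle, 10.9, 9.88 and 9.88 with 1 µM, 11.1, 10.0 and 10.2 with 5 µM, and 11.1, 10.3 and 10.2 with 10 µM. Number 6 was the highest library in every group, by 0.68 in vehicle and by 1.02, 1.00 and 0.85 at 1, 5 and 10 µM over the mean of numbers 8 and 11. At 10 µM all libraries lay above all of vehicle, while those at 1 and 5 µM overlapped vehicle.

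The normalised count of L1CAM averaged 767 ± 242 in vehicle, 1208 ± 559 with 1 µM, 1407 ± 636 with 5 µM and 1486 ± 565 with 10 µM (SD, n = 3 each). Relative to the matched vehicle, the 10 µM libraries held 205%, 208% and 164%. The differences of 0.57, 0.79 and 0.89 at 1, 5 and 10 µM (log2 scale, SE 0.36) did not pass limma's test (adjusted p = 0.492, 0.174 and 0.103). Without the number 6 library of the dose, the difference was 0.23 at 1 µM and 0.45 at 5 µM. With the label number as a block their SE was 0.09, and all passed (limma adjusted p = 0.00168, 4.33e-05 and 1.08e-05 at 1, 5 and 10 µM). That fit called 15.3% of genes higher at 5 µM and 18.7% at 10 µM. It also called L1CAM higher at 10 µM than at 1 µM (0.31 ± 0.09 (SE), adjusted p = 0.0274), with 9.46% of genes. With the block, the call at 1 µM was lost without number 8 (limma adjusted p = 0.112) or 11 (0.0526). The block call at 10 against 1 µM was lost without number 6 (0.0559). Without number 8 or 11 the block called only 1 of the markers in that comparison, against 3 with all libraries. Without the 4 libraries of number 6, the rise at 1 µM was 0.46 and passed with no block (limma adjusted p = 0.0294), where 6.75% of genes were called higher.

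L1CAM lies on chromosome X at 153861514 to 153886174 (minus strand). In GENCODE 29 it overlaps LCA10 on the opposite strand and the readthrough gene U52112.1, so reads may be shared with them.

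Of the 5 markers tested, limma called 3 at 10 µM, PAX8 higher and PODXL and PAEP lower, where 11.2% of all genes were called higher and 11.4% lower. The same 3 differed among the 4 groups by the F test (adjusted p = 0.0351, 1.02e-06 and 0.0349 for PAX8, PODXL and PAEP). That F test called 14.8% of all genes. With the label number as a block, 2 markers were higher at 10 µM, PAX8 and L1CAM, and PODXL and PAEP were lower, where 18.7% and 19.7% of all genes were called higher and lower. The median difference of the 5 markers at 10 µM was 0.04, and that of all genes 0.00.

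**Figure D4:**
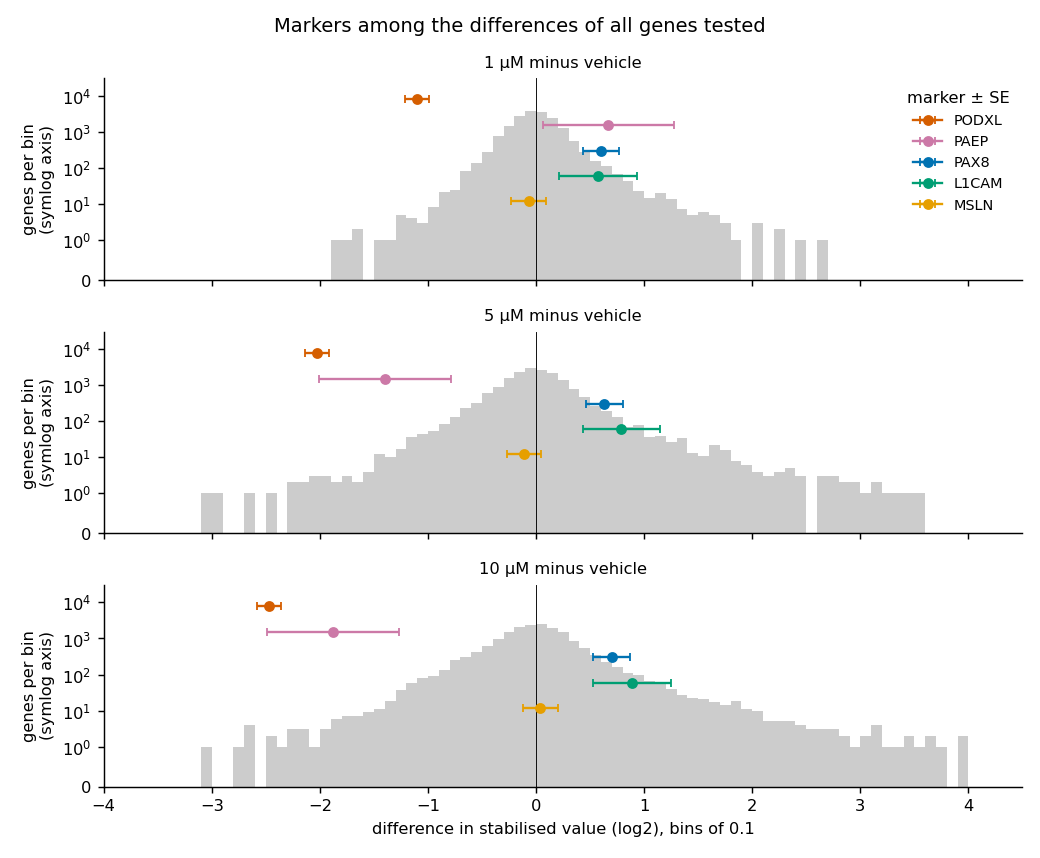
Differences from vehicle in stabilised value (log2, x axis) of all 17767 genes tested, as counts of genes per bin (symlog axis), at 1, 5 and 10 µM, with the 5 tested markers as points ± SE whose height has no meaning. PODXL lies at -1.10, -2.03 and -2.47, in the far left of each distribution, and MSLN lies close to 0.

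The genes most like each called marker were found over the 12 libraries after the mean of each label number was subtracted, and the points share libraries, label numbers and doses. For PODXL they were E2F7 (a repressor of the E2F family, r = 0.996), TRHDE-AS1 (0.995), the laminin receptor subunit ITGA6 (0.994), DOCK8 (0.994) and the import receptor IPO5 (0.993). ITGA6 differed from vehicle by -1.90 at 10 µM. For PAX8 they were B3GALNT1 (r = 0.987), the Notch target HES1 (0.985), PPP1R3B (0.983), PMEPA1 (0.983) and SH3RF3 (0.981), and HES1 was higher by 1.45 at 10 µM. For PAEP they were the receptor tyrosine kinase antagonist SPRY2 (r = 0.987), PEMT (0.979), PCOLCE (0.977), TMEM109 (0.976) and H2BC21 (0.975). Of these, PCOLCE differed by -0.54 and SPRY2 by -0.33 at 10 µM. All these genes were chosen from the same libraries for following a called marker. Their differences are therefore a description and no separate support.

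Of the 11 other ovarian tumour antigens tested, 9 exceeded the floor by more than 1 in some library of both vehicle and 10 µM (not CD24 and LCN2). Of these 9, limma called 3 higher at 10 µM (median difference 0.50, against 0.00 over all genes), and 6 higher with the label number as a block. Over all genes the shares called higher were 11.2% and, with the block, 18.7%. SPP1, the secreted matrix protein osteopontin, averaged 13.40 ± 0.10 at 10 µM, against 11.20 ± 0.79 in vehicle (stabilised value, SD, n = 3 each), a rise of 2.20 ± 0.30 (SE, adjusted p = 4.87e-04). CDH6, a cadherin of kidney and ovarian tumours, rose by 1.74 ± 0.54 (SE, limma adjusted p = 0.0387). CD24, a small sialylated surface protein, averaged 6.02 ± 0.23 at 10 µM and 5.02 ± 0.27 in vehicle (stabilised value, SD, n = 3 each). It entered the test only through 3 treated libraries, so its difference is given as a description. CD276 (B7-H3) rose by 0.50 (limma adjusted p = 0.00235).

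Lineage factors other than PAX8 mostly did not pass. Of 9 measured in both groups, limma called GATA6 higher at 10 µM (0.69 ± 0.14 (SE), adjusted p = 0.00408), near the 11.2% of all genes called higher. Their median difference was -0.16. The block called 1 higher and 2 lower, beside 18.7% and 19.7% of all genes. SOX17 and WT1, which mark the same lineage as PAX8, were measured at 7.73 to 9.08 and 6.89 to 7.73 over the 12 libraries and differed by -0.30 and -0.35 at 10 µM (limma adjusted p = 0.495 and 0.129). Of 9 epithelial structural genes measured in both groups, 1 rose and 3 fell at 10 µM (median difference -0.06), beside 11.2% and 11.4% of all genes. With the block 2 rose and 3 fell, beside 18.7% and 19.7% of all genes. Keratin KRT7 rose by 1.13 ± 0.35 (SE, limma adjusted p = 0.0368). The protease ST14 averaged 6.11 ± 0.21 at 10 µM and 5.63 ± 0.08 in vehicle (stabilised value, SD, n = 3 each) and entered the test only through treated libraries, so it is not counted. The simple-epithelial keratins KRT8 and KRT18 fell by 0.83 ± 0.17 and 0.73 ± 0.21 (SE, limma adjusted p = 0.00519 and 0.0288), and the desmosomal protein DSP fell by 0.96 ± 0.19 (adjusted p = 0.00439).

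Of 11 relatives and partners of podocalyxin tested, 3 fell at 10 µM (limma, median difference -0.08), beside 11.4% of all genes. These were the actin linkers EZR (-0.63 ± 0.12 (SE), adjusted p = 0.00316) and MSN (-0.33 ± 0.11, adjusted p = 0.0466) and the scaffold NHERF2 (-0.49 ± 0.14, adjusted p = 0.0270).

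Of 15 genes tested that shed, bind or signal with L1CAM, MUC1 or EPCAM, 3 rose and 2 fell at 10 µM (median difference 0.23), and 7 rose and 3 fell with the block. Of all genes 11.2% were called higher and 11.4% lower, and with the block 18.7% and 19.7%. Integrin subunit ITGB3, a receptor partner of L1CAM, averaged 11.20 ± 0.46 at 10 µM, against 13.37 ± 0.15 in vehicle (stabilised value, SD, n = 3 each), and differed by -2.17 ± 0.29 (SE, limma adjusted p = 4.17e-04). The tetraspanin CD9 fell by 1.13 ± 0.18 (SE, adjusted p = 0.00126). The hyaluronan receptor CD44 rose by 0.80, CTNNB1 (beta-catenin) by 0.43, and the gamma-secretase subunit NCSTN by 0.60 (limma adjusted p = 0.0318, 0.00651 and 0.00111 for CD44, CTNNB1 and NCSTN). Of NRCAM, ANK2 and ANK3, listed beside L1CAM and tested, only NRCAM is of the L1 family. NRCAM rose, averaging 9.76 ± 0.82 at 10 µM, against 7.30 ± 0.34 in vehicle. The difference was 2.46 ± 0.46 (SE, limma adjusted p = 0.00318). With the block, NRCAM rose, and ANK2 and ANK3 fell.

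Of 10 tested genes of folate uptake and use, 1 rose and 2 fell at 10 µM (limma, median difference -0.06), and 1 rose and 3 fell with the block. These counts are near the shares of all genes, 11.2% higher and 11.4% lower, or 18.7% and 19.7% with the block. The reduced folate carrier SLC19A1 rose by 0.87 ± 0.15 (SE, adjusted p = 0.00215). MTHFD1 and TYMS, which move and use folate-bound carbon for nucleotide synthesis, fell by 0.90 ± 0.11 and 0.81 ± 0.20 (SE, adjusted p = 2.23e-04 and 0.0141). Among kin of WFDC2, MSLN and PAEP, WFDC3 and the lipocalin LCN1 could be tested, and they differed by -0.07 and -0.20 at 10 µM (limma adjusted p = 0.872 and 0.596).

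**Figure D5:**
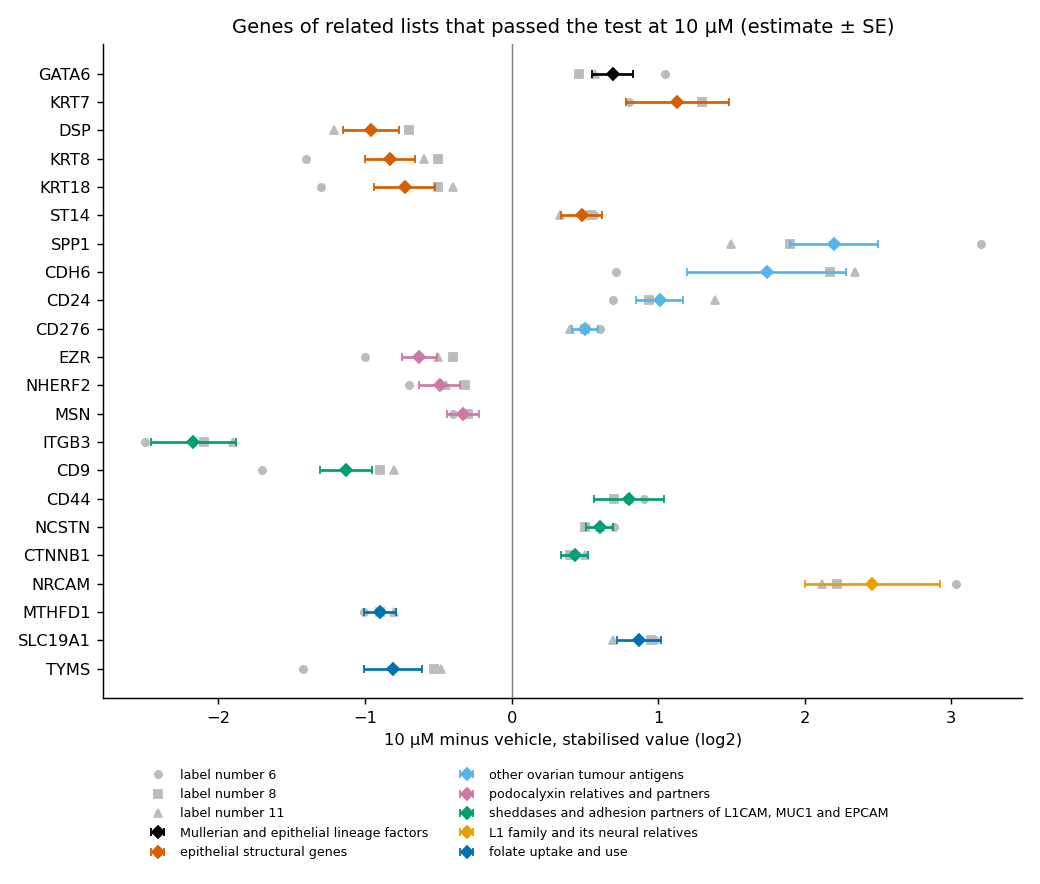
Differences between 10 µM and vehicle in stabilised value (log2, x axis) of the genes of related lists that passed limma's test (ST14 and CD24 through treated libraries alone), as coloured diamonds ± SE, with grey symbols for the difference within each label number. SPP1 and NRCAM rise most, at 2.20 and 2.46, ITGB3 falls most, at -2.17, and within label numbers each gene keeps its sign.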

How the data were processed

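Per the labels' protocols, total RNA of HEYA8 cells went through ribosomal depletion and TruSeq preparation, giving 12 libraries. The authors deposited variance-stabilised values on a log2 scale. The submitters' processing notes name DESeq2, used by the authors, and the build GRCh38 (hg38). The aligner, counting tool, strand setting and annotation release are not given in the sources used here. Values were rounded by 0.01 below 10 and 0.1 from 10 up (30.9% of values), which limits the spread seen in abundant genes. The table held 21211 entries, of which 4 named no gene and were left out.

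Depth and normalised counts were recovered from the stabilising curve (constant 117). Whole-read multiples covered 97.8% of the 71662 lowest values tested to within 0.005, and 24.8% when depths of other libraries were used. Genes at least 1 above the floor in at least 3 libraries were tested (17767) with limma 3.58.1 in R 4.3.3, over all 4 groups with no covariate, Benjamini-Hochberg adjusted over all genes, and called at an adjusted p under 0.05. The test was checked on simulated data with independent noise in each library. That check did not include the shared label numbers, so it does not cover their effect on the calls. Symbols were found for 21166 genes (99.8%). Tables and figures were made with Python 3.11.15, pandas 2.3.3 and matplotlib 3.10.9.

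No replicate was a copy: 61.2% to 83.5% of genes differed by more than 1 rounding step between libraries of a group. The label numbers pair the libraries: deviations from group means correlated at 0.316 to 0.777 in all 18 same-number pairs (median 0.486), against -0.711 to 0.569 in 36 others (median -0.398). The deviations within a group cancel out, so correlation within numbers itself pushes the others down. The lower median of the others is therefore no separate support. Because the labels do not say that replicates are separate cultures beyond calling them biological, p-values measure the spread between these libraries.

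The markers and gene lists were chosen with earlier results of these data known. Named were the 10 markers, the 5 genes most correlated with each marker called at 10 µM, and up to 6 genes per list called at 10 µM, largest difference first. Some list genes are not reported here and were left out of the list counts. List counts at 10 µM cover genes more than 1 above the floor in some library of both vehicle and 10 µM, a limit added after seeing the data. Alternatives were the replicate block, array weights, voom on recovered counts, other filters and trends, fits of 2 groups only, and leaving out libraries or label numbers. The fits without a label number that keep the block, and the interaction with number 6, were chosen after seeing the data.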

Additional observations from a re-analysis of the deposited data

Results flagged for a closer look

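PAEP, which encodes glycodelin, differed from vehicle by unlike amounts in the label numbers, and an interaction term chosen after this was seen passed its threshold. Its difference from vehicle in number 6 minus that in numbers 8 and 11 was -2.88 at 5 µM (SE 0.21, limma adjusted p = 0.00887) and -2.80 at 10 µM (SE 0.21, adjusted p = 0.00612). At 1 µM it was -1.15 (SE 0.21, adjusted p = 0.258). Each of these rests on 1 library of number 6 per dose, with a spread estimated from numbers 8 and 11 alone. The interaction therefore does not establish that the response differs. The vehicle library of number 6 enters all of them and had the lowest depth, about 24000000 reads on genes. The 1 µM library of number 6, with at least 31200000 reads on genes, was also high for PAEP. It held 6596 normalised counts, against 7073 in that vehicle library, and 2463 and 2137 with 1 µM in numbers 8 and 11. The part of depth in the difference was not tested. The count of PAEP at 10 µM was 477 in number 6, against 7073 in its vehicle, and 492 and 578 in numbers 8 and 11, against 1040 and 1119 in theirs. What the label number marks is not given, and its part in this difference was not tested.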

How the results depend on the processing

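PODXL kept its call at 5 and 10 µM in all 28 alternatives, and at 1 µM in 25 of 28. The number of the 5 markers called moved as follows, with some moves by 1 marker left out. With the replicate block it was 3 at 1 µM (1 in the reported fit), 4 at 5 µM (2) and 2 at 5 against 1 µM (1), and voom with the block gave the same counts, 3, 4 and 2. Array weights gave 4 at 1 µM and 2 at 5 against 1 µM. Of all genes, 6.76% were called higher at 1 µM with the block, against 1.18% in the reported fit. Shares with array weights are not given here, so these counts do not set the markers apart from other genes. Fits of 2 groups gave 1 at 5 µM, and voom without the block gave 1 at 10 against 1 µM (2). Without label number 6 the counts were 4 at 1 µM, 4 at 5 µM and 2 at 5 against 1 µM, with or without the block. Without number 8, and likewise without number 11, they were 0 at 1 µM, 1 at 5 µM, 1 at 10 µM (3), 0 at 5 against 1 µM, 0 at 10 against 1 µM and 1 among the 4 groups (3). With the block as well, leaving out number 8 gave 0 at 1 µM, and leaving out 8 or 11 gave 0 at 5 against 1 µM and 1 at 10 against 1 µM. Leaving out 1 replicate gave 1 to 3 at 1 µM, 1 to 2 at 5 µM and 2 to 3 at 10 µM. It gave 1 to 2 at 5 against 1 µM, 1 to 2 at 10 against 1 µM and 1 to 3 among the 4 groups. Against vehicle at 10 µM (3), the count was 4 with the block, array weights, voom with the block, or without number 6. It was 2 with voom without the block and in a fit of those 2 groups. MSLN turned sign to 0.06 without 1 µM replicate 8 and 0.02 without vehicle replicate 6 (1 µM), and to -0.03 without 10 µM replicate 11 and -0.07 without vehicle replicate 8 (10 µM), within ranges of -0.22 to 0.06 at 1 µM and -0.07 to 0.13 at 10 µM. The block also made L1CAM differ among the 4 groups (F test, adjusted p = 4.43e-05, against 0.309 in the reported fit). It changed no other call of the markers beyond those given. The causes of these moves were not tested. Limits: groups have 3 libraries, rounding hides small spreads from 10 up, and EPCAM, at 5 to 11 reads, was below the filter.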
